A study of Mus musculus with 4 samples.

Results

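The genes described here encode the classical axon guidance ligands and receptors of N2a cells, a mouse neuroblastoma cell line that keeps neuronal traits while it divides. Members were the rows of the mRNA table whose symbol belongs to the semaphorins, plexins, neuropilins, netrins, netrin receptors (Dcc, Neo1 and the Unc5 genes), Slits, Robos, ephrins or Eph receptors. There were 70 such genes among the 22287 genes of the table, 35 ligands and 35 receptors. The comparison set Mn-treated cells, N2a cultured with 300 µM manganese for 48 h, against untreated N2a cells. It rests on 1 total RNA library per condition, from which ribosomal RNA had been removed. The labels name the strain as C57BL/6, list neither passage nor clone, and repeat the manganese treatment text for every library, so the sample titles alone show which was treated. The Mn-treated library held 14606961 reads assigned to genes and the untreated library 13972437. With 1 library per condition there was no replicate check and no test across samples. Below, "with Mn" stands for the Mn-treated and "without" for the untreated library. Every ratio compares these libraries, and every interval is an exact conditional binomial 95% interval (Clopper-Pearson) that covers counting error only, since reads from PCR without molecular identifiers are not independent molecules.

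Guidance cues steer growing axons and migrating cells by binding receptors on the growth cone. Class 3 semaphorins are secreted and bind neuropilins that pair with A-type plexins, whereas class 4 and class 6 semaphorins are membrane proteins that bind plexins directly. Netrins attract through Dcc and Neo1 and repel through Unc5 receptors, Slits repel through Robo receptors, and ephrins are cell-surface ligands of the Eph receptor tyrosine kinases. Sympathetic neurons and their precursors, the lineage of neuroblastoma, use several of these systems during migration and innervation.

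The labelled cell type was checked against marker genes. The list of sympathoadrenal and neuroblastoma markers had a summed level of 661 CPM (read counts scaled to library depth) in the Mn-treated and 657 in the untreated library. The 7 neuronal markers summed to 3831 CPM with Mn and 3839 without, sums carried by Tubb3 and Uchl1. Single markers differed more. Gap43, a growth cone protein, had 578 reads with Mn and 261 without, a ratio of 2.12, and Map2, of dendritic microtubules, had 280 with Mn and 163 without, a ratio of 1.64. Th, the rate-limiting enzyme of catecholamine synthesis, had 173 reads with Mn and 88 without, a ratio of 1.88. Isl1, a transcription factor of sympathetic neurons, had 143 reads with Mn and 252 without, a ratio of 0.54. The part of these marker differences in the guidance gene results was not tested. Marker lists of astrocytes, endothelial, epithelial, fibroblast and immune cells summed to 0.89 to 6.16 CPM in the Mn-treated library, against 0.29 to 5.44 in the untreated library, with Aqp4, Epcam, Lum and Ptprc at 0 in both. The list of oligodendrocyte and Schwann cell markers summed to 22.2 CPM with Mn and 14.7 without, most of it from Mbp, with Sox10 at 0 in both.

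Before any comparison, the levels showed which guidance systems had reads. Levels between genes are compared as FPKM, the authors' fragment counts divided by transcript length and scaled to library depth. A gene is called measured where its reads in the 2 libraries sum to 20 or more, and 41 of the 70 members (58.6%) were measured, against 11872 of all 22287 genes (53.3%). Another 16 members had 1 to 19 reads and 13 had 0 reads in both libraries, where a count of 0 allows a share of up to 2.05e-05% of the Mn-treated and 2.15e-05% of the untreated reads (3 counts of the total). Just inside the limit lay Ntn1 with 22 reads over both libraries and Efnb2 with 34. Just outside it lay Efna4 with 18 and Efnb3 with 6.

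Receptors of netrins were the most abundant family. Unc5b, a repulsive netrin receptor, had 85.1 FPKM in the Mn-treated and 70.3 in the untreated library, rank 596 of all 22287 genes with Mn and 744 without. It held 70.2% of the summed FPKM of its family with Mn and 72.2% without. Unc5a had 13.0 FPKM with Mn and 13.4 without and Unc5c had 7.77 FPKM with Mn and 8.35 without. Dcc, the main attractive netrin receptor of the developing spinal cord, had 0 reads in both libraries, and Unc5d had 0 reads with Mn and 5 without. Neo1, which also binds repulsive guidance molecules, was the measured member of the Dcc type, at 15.3 FPKM with Mn and 5.35 without. Among the netrins themselves, Ntn3 held 96.7% of the FPKM in the Mn-treated and 99.9% in the untreated library, while Ntn4 had 0 reads in both and Ntn5 had 4 with Mn and 0 without.

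Slit3 was abundant, while no Robo receptor was measured. Slit3 had 32.4 FPKM in the Mn-treated and 36.8 in the untreated library, the highest of all ligands in the untreated library. Slit1 had 2.76 FPKM with Mn and 1.19 without, and Slit2 had 2.55 FPKM with Mn and 1.03 without. Robo2 had 0 reads with Mn and 3 without and Robo3 had 4 with Mn and 1 without, while Robo1 and Robo4 had 0 in both. The Eph receptors were sparse as well. Of 14 Eph genes 4 were measured, Epha8, Epha10, Ephb3 and Ephb4. Epha2, Epha4, Epha7, Ephb2 and Ephb6 had 0 to 3 reads per library and the other 5 had 0. All 14 together summed to 4.13 FPKM in the Mn-treated and 3.61 in the untreated library. Their ligands of the A type summed to 15.3 FPKM with Mn and 10.8 without.

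Plexins formed the broadest receptor family. Plxnb2 had 39.9 FPKM in the Mn-treated and 35.5 in the untreated library, Plxna1 had 25.4 FPKM with Mn and 23.9 without, and Plxna3 had 11.3 FPKM with Mn and 7.59 without. Plxna2 had 0 reads in both libraries and Plxnb3 had 2 with Mn and 0 without. Among semaphorins, class 4 was most abundant, with a summed level of 61.1 FPKM with Mn and 54.7 without. Sema4d, a ligand of plexin-B1, contributed 33.0 FPKM with Mn and 24.4 without. Class 5 was not measured, with Sema5a at 0 in both libraries and Sema5b at 0 reads with Mn and 3 without. In class 3, Sema3a, Sema3c, Sema3d and Sema3e had 0 to 4 reads per library, and Sema3f, the preferred ligand of Nrp2, was the most abundant at 8.05 FPKM with Mn and 7.81 without.

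**Figure D1:**
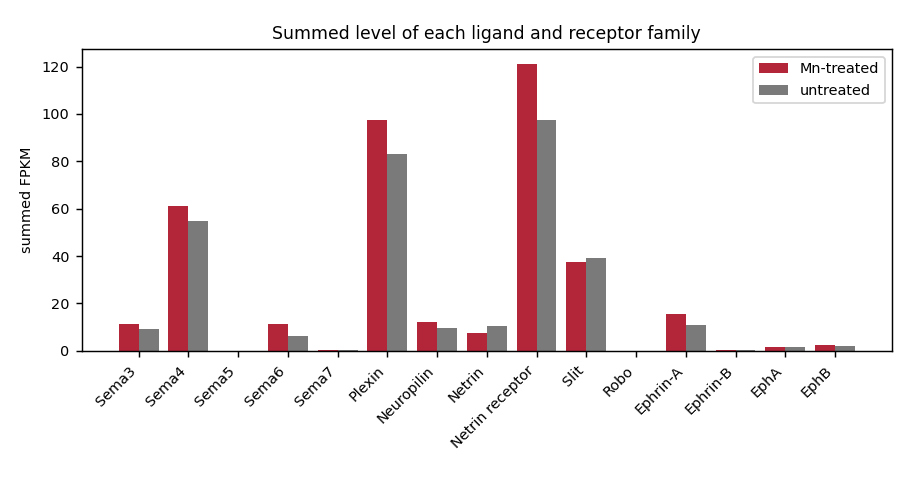
Summed FPKM (vertical axis, from 0) of each ligand and receptor family in the Mn-treated (red) and untreated (grey) total RNA library, 1 library per bar. Netrin receptors summed to 121 FPKM in the Mn-treated and 97.4 in the untreated library and plexins to 97.4 FPKM in the Mn-treated and 83.3 in the untreated library, the highest sums, and Robo had the lowest sum of any receptor family.

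**Figure D2:**
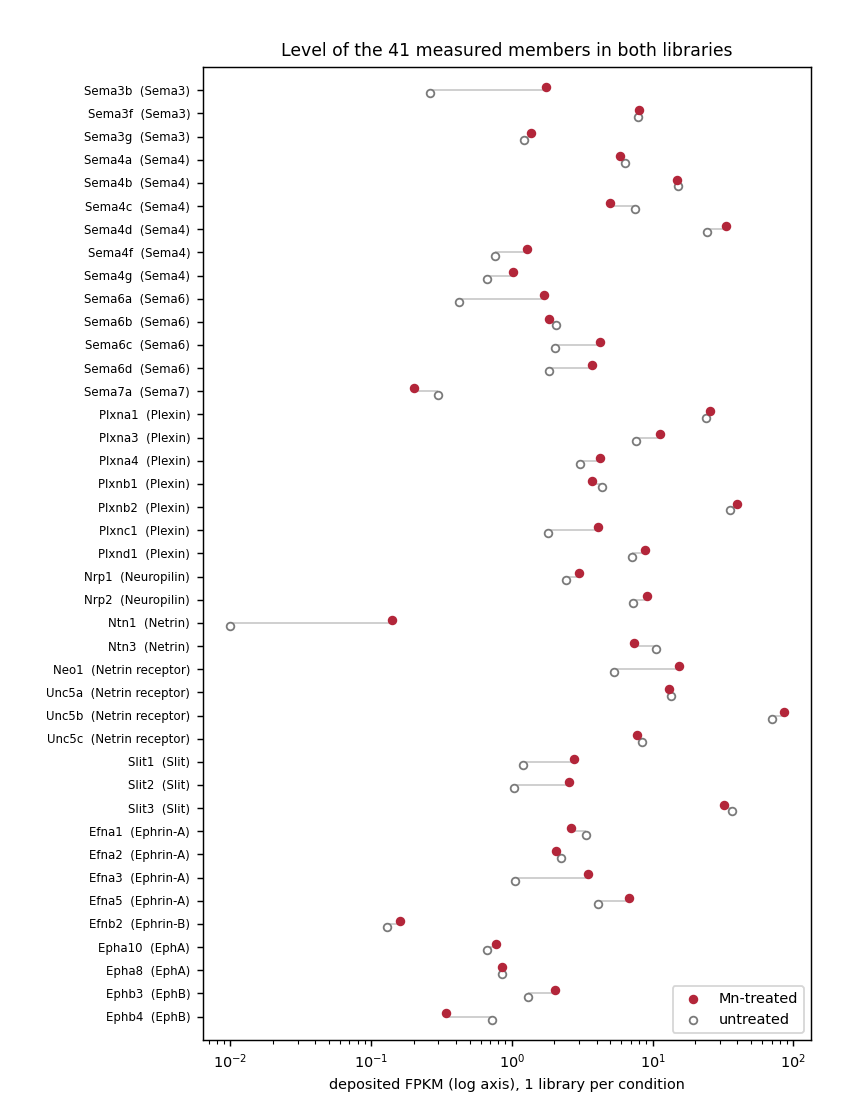
Deposited FPKM (log axis) of the 41 measured members, with the Mn-treated library as filled and the untreated library as open circles. Levels ran from 0.14 FPKM for Ntn1 to 85.1 for Unc5b in the Mn-treated library, and from 0.01 to 70.3 for the same genes in the untreated library.

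To compare the libraries, reads plus 0.5 were divided by the column total, and the log2 ratio is Mn-treated over untreated. Over all measured genes this ratio had a median of 0.18, so the middle gene was slightly higher in the Mn-treated library on this scale. The 41 measured members had a median of 0.27, with 23 above and 18 below the value of the middle gene. By 1.5-fold, 10 members were higher and 3 lower. The higher ones are 24.4% of the measured members, beside 21.6% of all measured genes, and the lower ones 7.32%, beside 5.97%, so as a group the members lay near the background. By 2-fold, 6 members were higher (14.6%) and 0 lower, beside 7.26% higher and 1.7% lower of all measured genes. By role, of 24 measured ligands 9 were at least 1.5-fold higher and 2 lower, whereas of 17 measured receptors 1 was higher and 1 lower. The ligands had a median of 295 reads over both libraries and the receptors 2269, so ligand ratios carry more counting error. Its part in the difference was not tested. With at least 100 reads, 7 of 20 ligands and 1 of 17 receptors were higher, beside 18.8% of all genes under that filter. Scaling the libraries by their median ratio left 7 ligands and 1 receptor higher, beside 13.3% of all measured genes under that scaling. Of the receptors, 3 of 17 were higher with deposited FPKM plus 0.1 and 6 of 26 with at least 1 read. Without genes with fractional counts, 0 of 15 receptors were higher. Ligands gave 10 of 24, 14 of 31 and 9 of 22 in the same order of settings. The shares of all genes that were higher under these settings were 20.03%, 27.4% and 20.9%. No test of the difference between ligands and receptors was made.

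**Figure D3:**
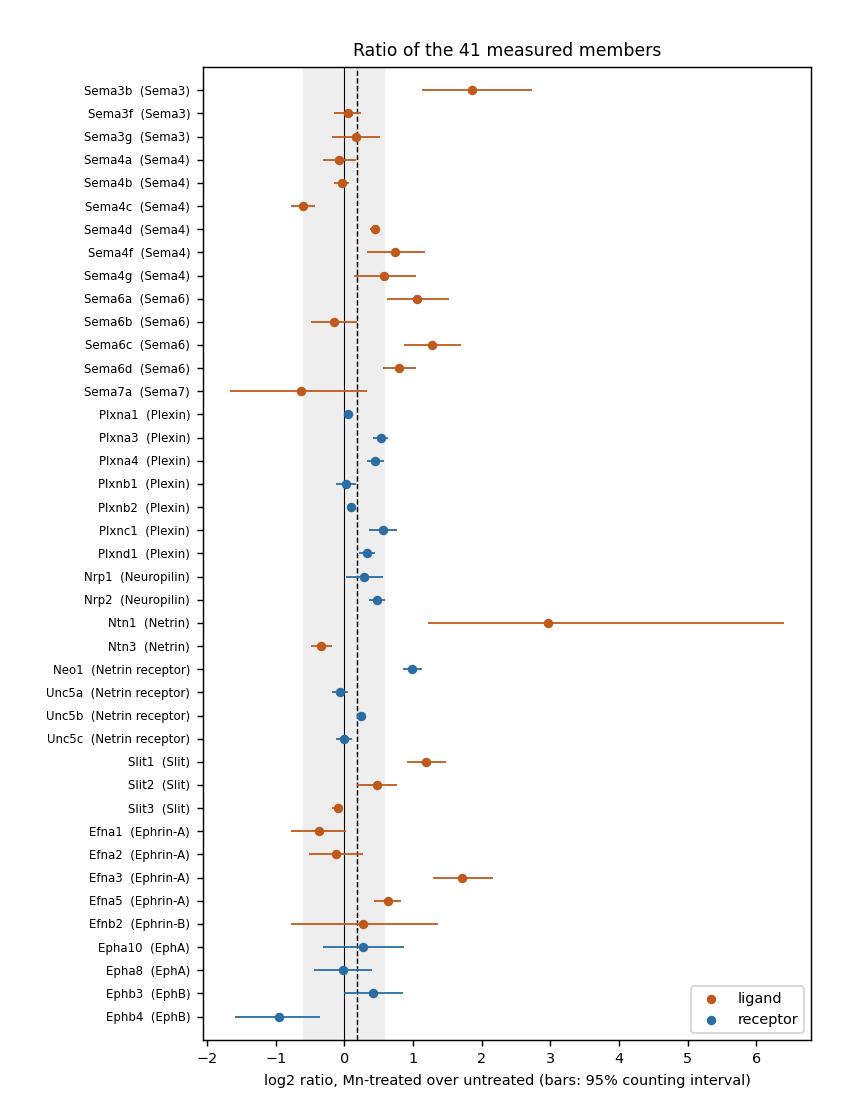
Log2 ratio, Mn-treated over untreated, of the 41 measured members grouped by family, with 95% counting intervals; ligands are orange and receptors blue, the grey band spans 1.5-fold either way and the dashed line is the median of all measured genes at 0.18. Ligands such as Ntn1, Sema3b, Efna3, Sema6c and Slit1 lie right of the band, while Neo1 is the one receptor there and Ephb4 the one receptor left of it.

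Efna3, a glycosylphosphatidylinositol-anchored ephrin, had the highest ratio among members with at least 100 reads over both libraries. It had 203 reads in the Mn-treated library, against 59 in the untreated library, a ratio of 3.27 [2.45 to 4.48]. Efna5, an ephrin that guides retinal axons to their targets, had 560 reads with Mn and 346 without, a ratio of 1.55 [1.35 to 1.78]. Efna5 lay inside 1.5-fold with both other scalings and with the trend in gene length removed. Efna1 had 96 reads with Mn and 119 without, at -0.37 on the log2 scale [-0.78 to 0.03], and Efna2 had 109 with Mn and 113 without, at -0.12. The makeup of the A-type ephrins differed between the libraries. Efna3 held 22.7% of their summed FPKM in the Mn-treated and 9.70% in the untreated library, and Efna1 held 17.0% with Mn and 31.1% without. Efnb2, the measured B-type ephrin, had 19 reads with Mn and 15 without, a log2 ratio of 0.27 [-0.78 to 1.36]. Efnb1 had 1 read with Mn and 0 without, and Efnb3 had 1 with Mn and 5 without.

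Efna1, Efna3 and Efna4 lie next to each other on chromosome 3 with no protein-coding gene between them (RefSeq, GRCm38.p6). Efna4 had 15 reads in the Mn-treated and 3 in the untreated library, too few for a ratio here. Of the 3 neighbours, Efna3 and Efna4 had more reads in the Mn-treated library and Efna1 fewer, with an interval for Efna1 that spans no change. The 250 bases before the most upstream RefSeq start of each are shown to set these neighbouring promoters side by side. They are read 5′ to 3′ in the direction of the gene, all on the minus strand of GRCm38.p6, and capitals mark the GC box GGGCGG on either strand.
Efna3, chr3:89322940-89323189: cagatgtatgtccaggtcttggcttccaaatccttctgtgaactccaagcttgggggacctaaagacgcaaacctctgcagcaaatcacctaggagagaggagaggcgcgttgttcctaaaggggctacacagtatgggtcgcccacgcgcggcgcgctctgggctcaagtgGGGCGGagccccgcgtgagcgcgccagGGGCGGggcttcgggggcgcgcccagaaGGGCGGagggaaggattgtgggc
Efna4, chr3:89338029-89338278: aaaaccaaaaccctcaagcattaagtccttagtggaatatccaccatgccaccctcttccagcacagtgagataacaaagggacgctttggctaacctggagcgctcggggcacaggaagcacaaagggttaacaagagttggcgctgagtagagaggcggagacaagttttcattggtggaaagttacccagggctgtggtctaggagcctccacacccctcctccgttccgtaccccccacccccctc
Efna1, chr3:89280952-89281201: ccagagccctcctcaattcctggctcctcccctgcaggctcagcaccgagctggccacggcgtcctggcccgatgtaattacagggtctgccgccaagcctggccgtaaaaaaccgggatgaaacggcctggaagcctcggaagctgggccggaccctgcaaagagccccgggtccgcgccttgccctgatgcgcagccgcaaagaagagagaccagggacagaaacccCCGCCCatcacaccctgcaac

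The Efna3 window held 3 GC boxes, the Efna1 window 1 and the Efna4 window 0. They held 19, 16 and 7 CpG dinucleotides in the same order of genes. A GC box was present in 32.7% of the 32851 RefSeq promoter windows of this length, whose median was 6 CpG dinucleotides, against 15.5 over the 76 windows of the 60 members that matched. On either strand, none of the 3 windows held TATAAA, the E-box CACGTG, the cAMP response element TGACGTCA, a metal response element core (TGCACNC or TGCGCNC) or an antioxidant response element core (TGACNNNGC). These were present in 12.4%, 6.02%, 1.55%, 21.4% and 10.2% of all windows. The motifs are letters in these windows and were not tested for binding.

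Transmembrane semaphorins of class 6 were higher in 3 of 4 genes. Sema6c had 180 reads in the Mn-treated and 71 in the untreated library, a ratio of 2.42 [1.83 to 3.24]. Sema6a, a ligand of Plxna2 and Plxna4, had 136 reads with Mn and 62 without, a ratio of 2.09 [1.54 to 2.88]. Sema6d had 395 reads with Mn and 217 without, a ratio of 1.74 [1.47 to 2.06]. These 3 genes stayed at least 1.5-fold higher under every alternative of scaling, filter, pseudocount, measure and length that was run. Sema6b was the exception, with 148 reads with Mn and 157 without, at -0.15 on the log2 scale, and the class summed to 11.4 FPKM in the Mn-treated and 6.31 in the untreated library.

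Among the secreted semaphorins, Sema3b had 70 reads in the Mn-treated and 18 in the untreated library, a ratio of 3.65 [2.19 to 6.64]. Sema3f had 470 reads with Mn and 435 without, a log2 ratio of 0.05 [-0.14 to 0.24], and Sema3g had 154 with Mn and 131 without, a log2 ratio of 0.17. Both lay close to the middle gene. In class 4 the members pointed both ways. Sema4f had 130 reads with Mn and 74 without, a ratio of 1.68 [1.25 to 2.27], which lay inside 1.5-fold with the other scalings. Sema4g, with 110 reads with Mn and 70 without, lay just inside 1.5-fold at 1.499. Sema4d had 3486 reads with Mn and 2444 without, a ratio of 1.36 [1.30 to 1.44]. Sema4c, a plexin-B2 ligand, was the lowest of the class, with 460 reads with Mn and 665 without, at -0.60 on the log2 scale [-0.77 to -0.42]. It lies at -0.59 in the authors' deposited table. Sema4b was at -0.04 and Sema4a at -0.07 on the log2 scale. Sema7a, which is anchored by a lipid and signals through integrins and Plxnc1, had 16 reads with Mn and 24 without, a log2 ratio of -0.63 [-1.66 to 0.32], an interval that spans no change.

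All 7 measured plexins lay within 1.5-fold. Plxnc1 had 485 reads in the Mn-treated and 314 in the untreated library, a ratio of 1.48 [1.28 to 1.71]. Plxna3 had 1898 reads with Mn and 1259 without, a ratio of 1.44 [1.34 to 1.55], and Plxna4 had 1336 with Mn and 933 without, a ratio of 1.37. The most abundant pair lay nearer to no change. Plxnb2 had 5716 reads with Mn and 5127 without, at 0.09 on the log2 scale [0.04 to 0.15], and Plxna1 had 4944 with Mn and 4535 without, at 0.06 [0.00 to 0.12], both below the middle gene at 0.18. Plxnb1 was at 0.02 and Plxnd1, a receptor of vascular patterning, at 0.33 on the same scale. Of the neuropilins, the semaphorin co-receptors, Nrp2 had 1388 reads with Mn and 956 without, a log2 ratio of 0.47 [0.35 to 0.59], and Nrp1 had 266 with Mn and 208 without, a log2 ratio of 0.29.

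In the netrin system, the largest ratio rested on few reads. Ntn1, the floor plate cue, had 20 reads in the Mn-treated and 2 in the untreated library, a ratio of 7.84 [2.32 to 84.4], at a level of 0.14 FPKM with Mn and 0.01 without. Its log2 ratio was 2.97 with the pseudocount of 0.5 and 1.77 with a pseudocount of 5. Ntn3, the abundant netrin, had 620 reads with Mn and 748 without, at -0.33 on the log2 scale [-0.49 to -0.18]. Neo1 had 1332 reads with Mn and 640 without, a ratio of 1.99 [1.81 to 2.19], the highest of all measured receptors. Its estimated counts are fractional, so its reads may be shared with other gene models. Unc5b had 11627 reads with Mn and 9362 without, a log2 ratio of 0.25 [0.21 to 0.29], above the middle gene. Unc5a, with 1227 reads with Mn and 1228 without, had a log2 ratio of -0.07. Unc5c, with 1236 reads with Mn and 1181 without, had one of 0.00, and both lay below the middle gene.

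Among the Slits, Slit1, which is expressed mainly in the nervous system, had 366 reads in the Mn-treated and 153 in the untreated library, a ratio of 2.28 [1.89 to 2.78]. Slit2 had 243 reads with Mn and 167 without, a ratio of 1.39 [1.14 to 1.71]. Slit3 had 2447 reads with Mn and 2504 without, at -0.10 on the log2 scale [-0.18 to -0.02]. The summed level of the family was set by Slit3 and stood at 37.7 FPKM in the Mn-treated and 39.0 in the untreated library. Of the Eph receptors, Ephb4, best known as the ephrin-B2 receptor of veins, had 36 reads with Mn and 67 without, at -0.95 on the log2 scale [-1.59 to -0.36], the lowest of all measured members, and it stayed at least 1.5-fold lower under each alternative run. Ephb3 had 111 reads with Mn and 79 without, a log2 ratio of 0.42 [0.00 to 0.86]. Epha8 had 99 reads with Mn and 96 without, a log2 ratio of -0.02 [-0.44 to 0.40], and Epha10, which lacks kinase activity, had 57 with Mn and 45 without, at 0.27 on the same scale.

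Effective length was derived from the reads, FPKM and column total of each library, as no length was given. A difference in effective length between the libraries therefore restates the gap between count ratio and deposited FPKM ratio and is no separate evidence. For 7 of the 41 measured members (17.1%) the log2 fold change of the authors' deposited table lies more than 0.25 from the count ratio, beside 16.2% of all 11833 measured genes with FPKM in both libraries. On the log2 scale Sema6a is at 2.0 in the authors' deposited table against 1.06 from counts, and its reads per FPKM imply an effective length of 5.54 kb in the Mn-treated and 10.6 kb in the untreated library. Sema3b is at 2.75 in the authors' deposited table against 1.87, with a length of 2.74 kb in the Mn-treated and 4.95 kb in the untreated library. For Slit2 the authors' deposited table has 1.31 against 0.48, with a length of 6.52 kb in the Mn-treated and 11.6 kb in the untreated library. Plxnc1 is at 1.19 in that deposited table of the authors against 0.56, with a length of 8.06 kb in the Mn-treated and 12.5 kb in the untreated library, and Neo1 at 1.52 against 0.99, with a length of 5.94 kb in the Mn-treated and 8.56 kb in the untreated library. Ntn1, on 22 reads, is at 3.81 in the authors' deposited table against 2.97, a gap that rounding of FPKM and the pseudocount also affect. In these 6 the deposited value is the higher one, and Plxnb1 is the reverse, at -0.25 in the authors' deposited table against 0.02. Which isoforms the reads came from was not tested.

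**Figure D4:**
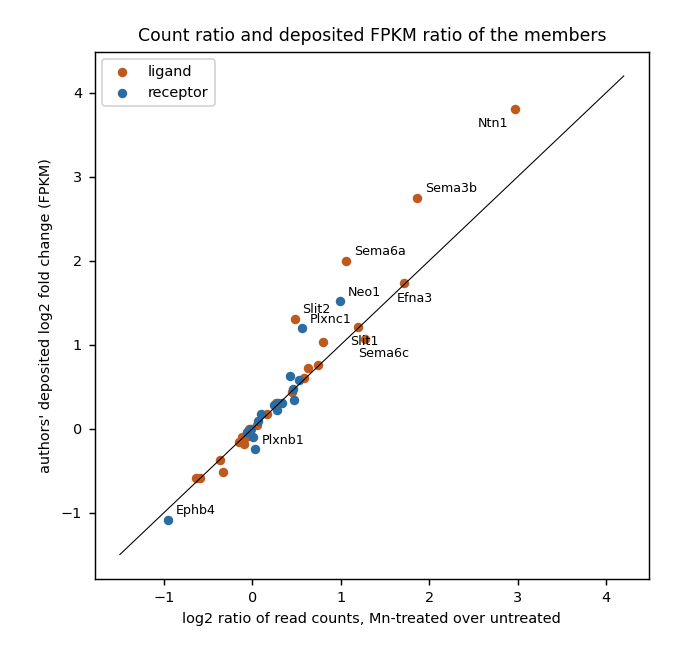
Log2 ratio from read counts (horizontal) against the authors' deposited log2 fold change from FPKM (vertical) for the 41 measured members, ligands orange and receptors blue, with the line of equal values. Sema6a, Sema3b, Slit2, Plxnc1, Neo1 and Ntn1 lie above the line, and Efna3 and Slit1 lie on it, at 1.73 and 1.21 in the deposited table against 1.71 and 1.19 from counts.

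Effective length, pooled over both libraries, moved with the ratio across all genes. It rests on column totals, so its kb values are a relative scale and not measured transcript lengths. On this scale measured members were long, with a median of 6.85 kb against 4.12 kb for all measured genes. Of the 41 members, 31 were in the longest of 3 equal length classes (above 5.30 kb). In that class all genes had a median log2 ratio of 0.35 and 30.2% were at least 1.5-fold higher, while the shortest class had a median of 0.02 and 14.4%. The 31 members of the longest class had a median of 0.29. With the trend in length removed, the members' median was 0.07, and 8 ligands and 1 receptor were at least 1.5-fold higher. Together these are 22.0% of the measured members, beside 20.1% of all measured genes under the same setting, where all measured genes had a median of 0.18.

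The proteins that carry guidance signals to the cytoskeleton, and further cues, were described with 6 lists with 98 genes in the table, of which 81 were measured. Of these 19 were at least 1.5-fold higher and 1 lower, with a median log2 ratio of 0.24, so their median too lay near that of all measured genes. The shares, 23.5% higher and 1.23% lower, stand beside 21.6% higher and 5.97% lower of all measured genes. With median-ratio scaling 12 were higher and 3 lower, beside 13.3% higher and 11.3% lower of all measured genes. Slit and Robo effectors had the highest median, at 0.46, with 6 of 14 higher and 0 lower, among them the kinase Pak1 with 538 reads with Mn and 246 without at a log2 ratio of 1.06, the adaptor Nck1 with 231 with Mn and 107 without at 1.04, and Srgap3 at 0.85. Rac1 was at -0.12 in that list. The 6 became 4 of 14 with the trend in length removed and 3 of 11 without genes with fractional counts. Of all genes, 20.1% and 20.9% were higher under these settings. Of 17 Eph and ephrin effectors 5 were higher (29.4%) and 0 lower, but 2 were higher with either other scaling and with the trend in length removed. Of all measured genes 13.3% and 13.6% were higher with those scalings and 20.1% with the trend removed. The 5 were led by the kinase Rock2 at 0.86 and the ephrin sheddase Adam10 at 0.78. Cfl1, which severs actin, was at -0.19.

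Semaphorin and plexin effectors had a median of 0.16, beside 0.18 over all measured genes. Of these effectors 3 of 17 were higher (17.6%) and 0 lower, beside 21.6% higher and 5.97% lower of all measured genes. L1cam, an adhesion molecule that partners Nrp1, had 5697 reads in the Mn-treated and 2782 in the untreated library, a log2 ratio of 0.97 [0.90 to 1.04]. Mical3 was at 0.84 and Gsk3b at 0.75, and Farp2 was at -0.52 and Mical1 at -0.34. The list of netrin effectors also held Bcas1, at -0.10, which is not an established netrin effector. Of the 18 measured genes of that list 3 were higher (16.7%) and 0 lower, beside the same shares of all measured genes. Trio was at 0.83, Dscaml1 at 0.78 and Trim9, a ligase that binds Dcc, at -0.41. None of the 4 measured collapsin response mediator proteins, which transmit semaphorin signals, passed 1.5-fold. Dpysl2 had 2231 reads with Mn and 1466 without, at 0.54, Crmp1 was at 0.01 and Dpysl5 at -0.05. Of the 11 other measured cues and receptors, Tenm2 was at 1.18 on 22 reads with Mn and 9 without and Tenm4 at 0.75, and Rgmb, a ligand of Neo1, had 82 reads with Mn and 127 without, at -0.69 [-1.11 to -0.28]. In the authors' deposited table Rgmb is at -0.05.

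**Figure D5:**
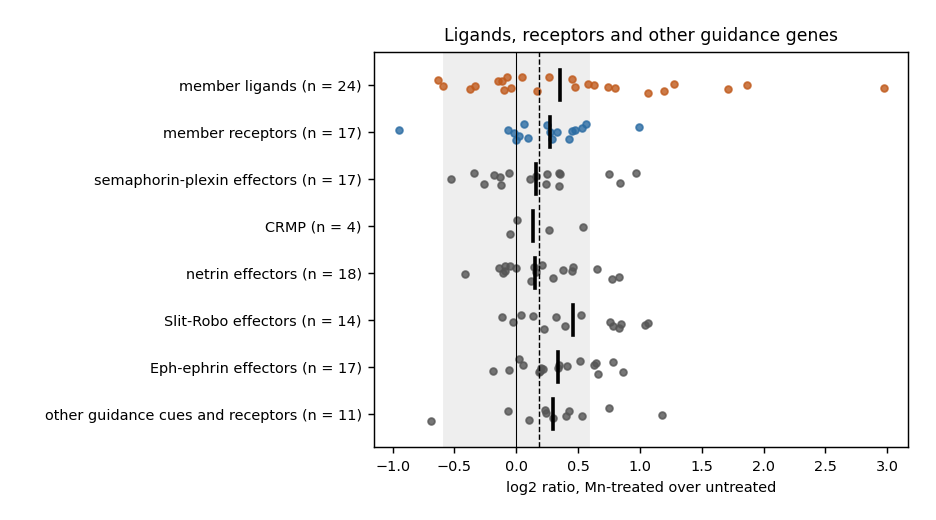
Log2 ratio, Mn-treated over untreated, of each measured member ligand and receptor and of the measured genes of 6 further guidance lists; bars mark medians, the grey band spans 1.5-fold either way and the dashed line is the median of all measured genes at 0.18. Medians lie between 0.13 for the collapsin response mediator proteins and 0.46 for Slit and Robo effectors, with member ligands at 0.36 and member receptors at 0.27.

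Circular RNAs, counted by reads across back-splice junctions, gave a second readout of the same libraries. Of 2253 circRNAs 10 came from 7 member genes, with 15 junction reads in the Mn-treated and 28 in the untreated library, of 9433 junction reads in all with Mn and 11665 without. Neo1 gave 4 of the 10 and most of their reads, 10 with Mn and 19 without, a ratio of 0.65 [0.27 to 1.47]. The direction was opposite to that of its gene reads, at 1.99, but the interval spans no change. The other hosts, Efna5, Nrp1, Sema4c, Slit3, Unc5b and Unc5c, had 2 or 3 junction reads each over both libraries.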

How the data were processed

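The authors deposited 1 mRNA table with estimated counts, which are fractional for 13.3% of the genes and for 4 members (Neo1, Nrp1, Sema4c, Sema4d), and FPKM values. The authors' deposited log2 fold change is a ratio of FPKM in which 0 was replaced by 0.001. The circRNA table, also deposited, holds whole junction read counts. Tools named in the submitters' processing notes are fastp 0.18.0, Bowtie2 and StringTie, with build mm9 and no role or order. How reads were counted, with which strand setting and annotation, is not given in the sources used here, so reads of overlapping or antisense genes may be shared. Columns were assigned by the condition in their name and the RNA class of the table, and 0 remained unassigned.

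Estimated counts were taken to the nearest whole number. Ratios used a pseudocount of 0.5, column totals and at least 20 reads over both libraries. Python 3.11.15, scipy 1.17.1, statsmodels 0.14.6 and edgeR 4.0.16 (scaling factors) were used. Interval and ratio steps were tested on data simulated from the binomial model behind the intervals, which checks the computation and not variation between libraries. All members are accounted for by their reads, with intervals for those past 1.5-fold and the most abundant of a family, and up to 3 highest and 3 lowest genes of each further list. Effective length is reads over FPKM and the column total, a relative scale and not a measured transcript length. Members and lists were chosen with earlier results of these data known. Promoters are from RefSeq (GRCm38.p6), and 60 of 70 members matched. The result for 1 marker gene is not reported here.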

Additional observations from a re-analysis of the deposited data

How the results depend on the processing

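No paired analysis was possible because each condition had 1 library, so leaving out a replicate and replicate-based tests could not be run either. The members' median log2 ratio of 0.27 moved to 0.090 with median-ratio scaling, 0.098 with edgeR's TMM factors, 0.25 with a pseudocount of 5, 0.33 over the 57 members with at least 1 read and 0.071 with the trend in effective length removed, an alternative chosen after seeing the data because the table gives no length. Those scalings moved the median of all genes by a similar amount, to -0.001 and 0.007. With the length trend removed the median of all genes was 0.18. The 10 members higher by 1.5-fold became 20 with at least 1 read, and stood between 8 and 13 under the other alternatives. The share of all genes that were higher by 1.5-fold moved as well, to 27.4% with at least 1 read and to between 13.3% and 21.6% otherwise. The 3 lower became 8 with at least 1 read and 1 with deposited FPKM plus 0.1. The share of all genes lower by 1.5-fold was 9.83% and 6.28% under these settings, beside 5.97% in the main one. The median of the other guidance genes, 0.24, moved to 0.057 with median-ratio scaling and 0.065 with TMM factors. It was 0.21 with deposited FPKM plus 0.1, 0.23 without genes with fractional counts and 0.18 with the length trend removed. Ephb4, Sema6d, Neo1, Sema6a, Slit1, Sema6c, Efna3, Sema3b and Ntn1 stayed past 1.5-fold in every alternative that could be run. Sema7a and Sema4c did not with deposited FPKM plus 0.1, at -0.415 and -0.580, nor did Sema7a with a pseudocount of 5. Without the added 0.1 their deposited values are -0.585 and -0.590, at or past 1.5-fold (0.585 on the log2 scale). No called member changed sign. Depth limits the sparse genes most: Ntn1, Sema7a and Efnb2 each rest on 40 or fewer reads.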
